A study of Mus musculus with 22 samples.

Results

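The Cyp4 fatty acid omega-hydroxylases described here are 8 genes of mouse liver: Cyp4a10, Cyp4a14, Cyp4a31, Cyp4a32, Cyp4f13, Cyp4f14, Cyp4f15 and Cyp4v3. They were found by gene symbol among the 55573 genes of the deposited count table, where each symbol had 1 row, and all 8 passed the filter on low counts that kept 14062 genes for testing. Liver mRNA of 22 C57BL/6 mice was sequenced, 1 library per mouse. Cre mice carried Albumin-Cre and wild-type Flcn (6 on chow, 5 on MCD), and FLCN KO mice carried Albumin-Cre and a floxed Flcn gene (5 on chow, 6 on MCD), so that all 4 groups expressed the recombinase, which the albumin promoter drives in hepatocytes. The chow diet held 10 kcal% fat. The other diet lacked methionine and choline (MCD), and the study describes it as also high in fat and sucrose. Diets began at 6 weeks of age and lasted 6 weeks, and livers were taken at 3 months. The comparisons address how the MCD diet, which injures the liver, and hepatocyte loss of Flcn change expression. Between 13751347 and 21144388 reads were counted per library, and levels are given as counts scaled to library size (CPM) after TMM scaling.

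Cytochrome P450 enzymes of the Cyp4 family add a hydroxyl group to the far end, the omega carbon, of fatty acids. Alcohol and aldehyde dehydrogenases turn the product into a dicarboxylic acid, which peroxisomes then shorten by beta-oxidation. In rodent liver Cyp4a10 and Cyp4a14 are classic targets of PPARα, the nuclear receptor that senses fatty acids. Enzymes of the Cyp4f subfamily act on leukotrienes and other eicosanoids as well as on fatty acids, and Cyp4v3 is the mouse counterpart of human CYP4V2, a fatty acid hydroxylase whose loss causes a retinal dystrophy.

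On GRCm38 (GENCODE M21) the members lie on 3 chromosomes. The 4 Cyp4a genes stand side by side, with Cyp4a14 at chr4:115486200-115496142 on the minus strand and, on the plus strand, Cyp4a10 at chr4:115518264-115533649, Cyp4a31 at chr4:115563649-115579015 and Cyp4a32 at chr4:115600969-115621602. The Cyp4f members are Cyp4f15 at chr17:32685627-32703352 (plus), Cyp4f14 at chr17:32905070-32917342 (minus) and Cyp4f13 at chr17:32924688-32947402 (minus). Cyp4v3 lies at chr8:45304944-45333216 (minus). The coding stretch around the cysteine that binds the heme iron is shown for all 8 members because it is the shared active-site signature of the family. It is 30 bases long, 5′ to 3′, from the annotated transcripts, and the cysteine codon is in capitals.
Cyp4a10: ttctcaggaggagccaggaacTGCattggg
Cyp4a14: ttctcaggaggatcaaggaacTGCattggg
Cyp4a31: ttctcaggaggagccaggaacTGCattggg
Cyp4a32: ttctcaggaggagccaggaacTGCattggg
Cyp4f13: ttctcagcggggaccaggaacTGCatagga
Cyp4f14: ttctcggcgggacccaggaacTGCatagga
Cyp4f15: ttctccgctgggcccaggaacTGCatagga
Cyp4v3: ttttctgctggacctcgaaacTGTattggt
Cyp4a10, Cyp4a31 and Cyp4a32 are identical over this stretch, and Cyp4v3 alone among the 8 has TGT as its cysteine codon.

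The same 3 Cyp4a genes are close copies over their whole coding length of 1530 bases. Cyp4a10 was 96.6% identical to Cyp4a31 and 97.2% to Cyp4a32, against 76.7% to Cyp4a14. The first 75 coding bases, which is the read length, are shown because they tell how well a read can separate the copies. Capitals mark bases that differ from Cyp4a10.
Cyp4a10: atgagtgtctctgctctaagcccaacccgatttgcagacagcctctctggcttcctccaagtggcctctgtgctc
Cyp4a31: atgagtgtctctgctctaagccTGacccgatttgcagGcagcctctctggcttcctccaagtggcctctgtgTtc
Cyp4a32: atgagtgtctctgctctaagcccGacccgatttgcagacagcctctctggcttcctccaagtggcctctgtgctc
Cyp4a14: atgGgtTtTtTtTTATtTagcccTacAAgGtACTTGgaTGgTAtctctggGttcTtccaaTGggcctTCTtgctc
Here Cyp4a31 has 4 differences from Cyp4a10, Cyp4a32 has 1 and Cyp4a14 has 29. Of all stretches of 75 bases in the transcripts, 19.1% in Cyp4a10, 13.9% in Cyp4a31 and 30.4% in Cyp4a32 also occur exactly in another gene, mostly in one another, and 0 of 2422 in Cyp4a14 do. The counts of Cyp4a10, Cyp4a31 and Cyp4a32 are therefore uncertain, whether such reads went to another copy or were left out. Those of Cyp4a14 are not limited in this way. Cyp4v3 overlaps the gene model Gm45753 by 313 exon bases on the same strand, and Gm45753 held 0 to 7 counts per library.

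Several properties of the libraries bear on the values that follow. The labels give no sex, but the counts of Xist and of 4 Y-linked genes separated 12 female from 10 male libraries, with both sexes in every group (3 females in each, and 3, 2, 2 and 3 males in Cre chow, Cre MCD, FLCN KO chow and FLCN KO MCD). The 5 male chow libraries were also the 5 whose uniquely mapped read share was low in the read statistics of the study, so sex and mapping share cannot be told apart on chow. Some female libraries held Y-linked reads as well, most in Cre MCD 1 (31.9 CPM) and FLCN KO Chow 2 (24.7 CPM), where male libraries held 123 to 209 CPM. Skeletal muscle RNA was highest in Cre MCD 3, with 3454 CPM summed over 12 muscle markers, followed by Cre MCD 4 (165 CPM), FLCN KO MCD 3 (76.8 CPM), Cre MCD 1 (21.5 CPM) and FLCN KO Chow 3 (15.2 CPM). The other libraries held 1.05 to 6.77 CPM. The hepatocyte marker Alb led its list in every group, and the 8 hepatocyte markers summed to between 63446 and 160426 CPM per library.

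Flcn itself was lower in FLCN KO mice on chow and did not pass the test on MCD in these whole livers. Flcn stood on chow at 31.7 ± 4.91 CPM in Cre mice (SD, n = 6) and 20.4 ± 2.78 in FLCN KO mice (n = 5), and on MCD at 29.2 ± 8.42 in Cre mice (n = 5) and 26 ± 5.13 in FLCN KO mice (n = 6). The log2 fold change of FLCN KO against Cre mice was −0.63 on chow (adjusted p = 0.025, edgeR) and −0.16 on MCD (adjusted p = 0.57), where the groups overlapped. Counts over the whole gene include reads from other cells and from exons outside the deleted part, so they check the labels only in part. The edgeR p-values below set each difference against the spread between mice within groups. This spread is estimated over all groups in the fit, and with the sexes pooled each group holds both. The exact permutation tests use only the groups compared.

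**Figure D1:**
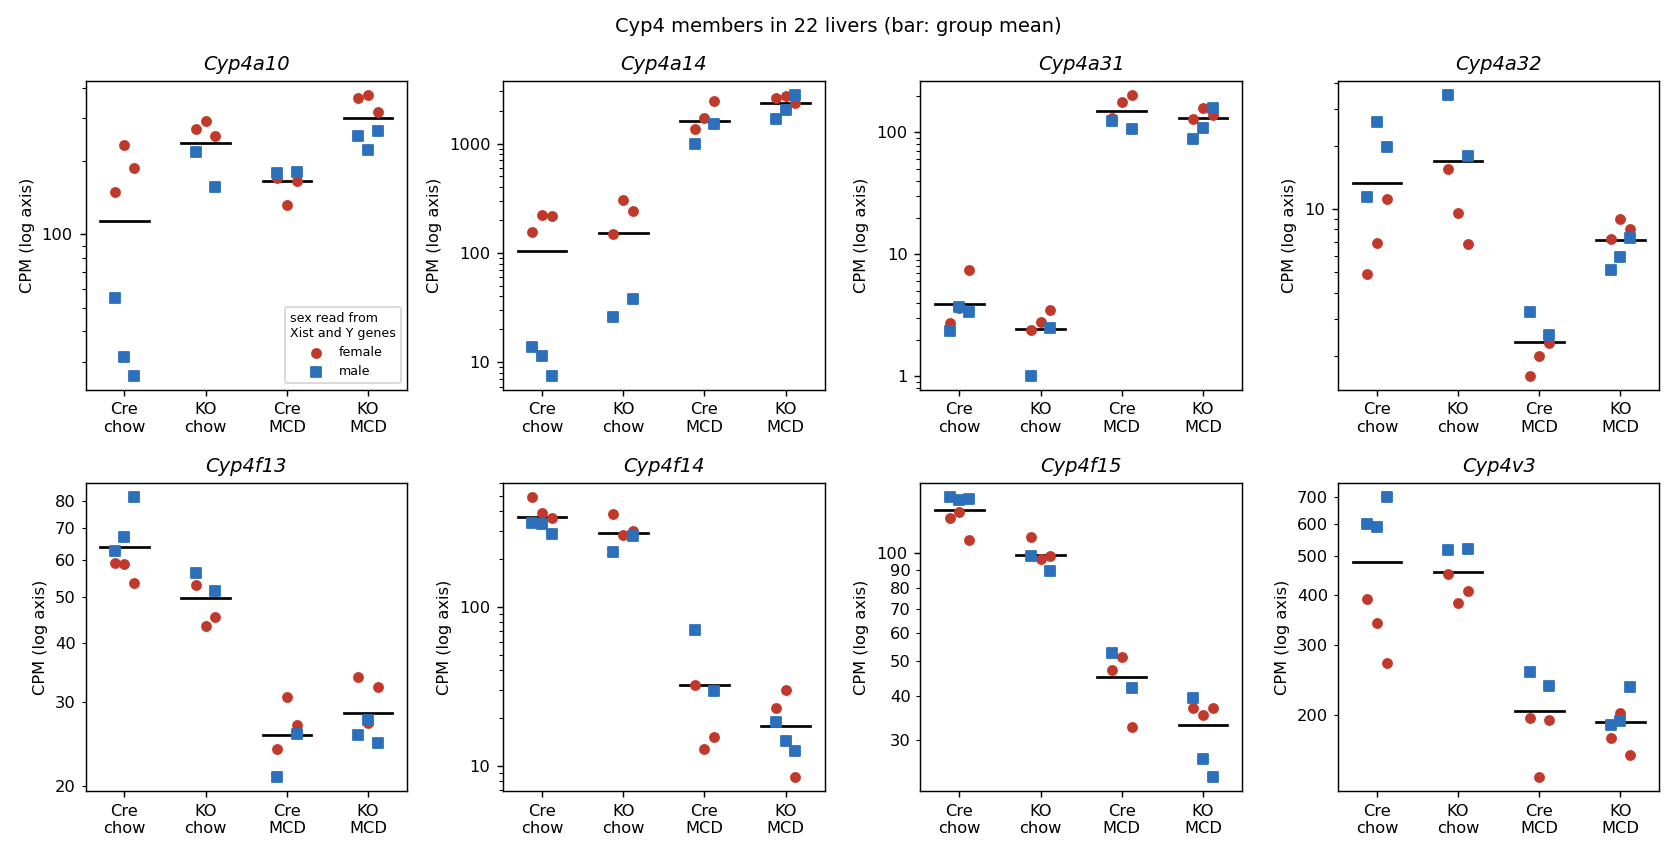
Level of each Cyp4 member in each of 22 livers, in CPM on a log axis, by genotype and diet. Circles are libraries read as female, squares those read as male, and the bar is the group mean. Cyp4a14 and Cyp4a31 stand higher in every MCD library than in any chow library, the Cyp4f members and Cyp4v3 lower, and Cyp4a14 on chow splits by sex.

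The MCD diet moved the family in both directions. In Cre mice 2 members rose (Cyp4a14 and Cyp4a31), 5 fell (Cyp4a32, Cyp4f13, Cyp4f14, Cyp4f15 and Cyp4v3) and Cyp4a10 did not pass the test. This diet changed most of the transcriptome: 57.5% of tested genes were called at adjusted p under 0.05 (29.3% higher and 28.2% lower), so 7 of 8 is read against that share. In FLCN KO mice the same 7 members were called in the same directions, where 45.0% of tested genes were called (22.5% in each direction). Without the 2 libraries richest in Y-linked reads among the females, or without Cre MCD 3, 7 members were called in each genotype, and without the 5 male chow libraries 7 in Cre and 6 in FLCN KO mice. The median log2 fold change over the 8 members was −1.28 in Cre and −1.03 in FLCN KO mice, beside 0.01 and 0.00 over all tested genes. The members together took 0.108% of all counts in Cre mice on chow and 0.251% on MCD, and 0.122% and 0.345% in FLCN KO mice. This total followed Cyp4a14, whose mean went from 104 to 1602 CPM in Cre mice and from 152 to 2358 CPM in FLCN KO mice, while 5 members fell. In these bulk samples, fewer cells of a type and less RNA per cell cannot be told apart.

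Cyp4a14 became the most abundant member on MCD. On chow it lay at 13.8, 154, 222, 218, 11.4 and 7.55 CPM in Cre mice 1 to 6 and at 25.8, 148, 37.7, 306 and 243 CPM in FLCN KO mice 1 to 5. On MCD it lay at 1369, 1703, 983, 1501 and 2451 CPM in Cre mice, and between 1690.4 and 2773 CPM (median 2465) in FLCN KO mice. Every MCD library exceeded every chow library, and on chow the 5 low values were those of the male libraries. The log2 fold change was 3.94 in Cre mice (SE 0.78, 15.3-fold, adjusted p = 2.0e-04, edgeR) and 3.95 in FLCN KO mice (SE 0.83, adjusted p = 5.3e-04). The exact two-sided permutation test gave p = 0.00216 in each genotype, the smallest these group sizes allow.

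With the sexes pooled, Cyp4a31 had the largest log2 fold change among the 8 members in both genotypes. On chow it was near the bottom of the measured range, with 2.37 to 7.48 CPM in Cre mice (median 3.51) and 1.01, 2.38, 2.49, 2.81 and 3.50 CPM in FLCN KO mice. On MCD it reached 130.4, 179, 125, 106 and 202 CPM in Cre mice and 88.1 to 158 CPM in FLCN KO mice (median 133). The groups were far apart, by 5.24 on the log2 scale in Cre mice (SE 0.28, 37.8-fold, adjusted p = 1.0e-11, edgeR) and by 5.71 in FLCN KO mice (SE 0.31, 52.2-fold, adjusted p = 2.9e-11). Its response stood apart from that of Cyp4a32, its close copy, which fell. Cyp4a32 went from 4.92 to 25.9 CPM in Cre mice on chow (median 11.3) to 1.61, 1.98, 3.23, 2.52 and 2.31 CPM on MCD, and these groups did not overlap. Its log2 fold change was −2.51 in Cre mice (SE 0.42, adjusted p = 3.0e-05) and −1.25 in FLCN KO mice (SE 0.38, adjusted p = 0.0095), where the groups overlapped. The second of these calls was lost without FLCN KO Chow 1, the library with the highest value of 34.9 CPM (−0.81, adjusted p = 0.065), and within the female libraries (−0.40, adjusted p = 0.37).

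Cyp4a10, a textbook PPARα target, did not pass the edgeR test of the 4 groups in either genotype. Its level in Cre mice 1 to 6 on chow was 54.9, 149, 232, 186, 31.5 and 26.4 CPM, and on MCD it was 170.4, 132, 179, 181 and 166 CPM. The MCD values sat in a narrow band inside the wide chow range. The log2 fold change was 0.54 in Cre mice (SE 0.40, adjusted p = 0.25) and 0.33 in FLCN KO mice (adjusted p = 0.52). The change in Cre mice passed narrowly with limma-voom (1.01, adjusted p = 0.0485) and with sex as a covariate (0.78, adjusted p = 0.0484). With Cyp4a10, Cyp4a31 and Cyp4a32 added up, because of their shared reads, the sum rose in Cre mice (1.28, SE 0.31, adjusted p = 0.0013) and narrowly missed the threshold in FLCN KO mice (0.76, SE 0.31, adjusted p = 0.051).

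All 3 Cyp4f members fell on MCD in both genotypes, and Cyp4f14, which inactivates leukotriene B4, fell the most of them. Cyp4f14 was at 288 to 492 CPM in Cre mice on chow (median 349) and at 32.0, 12.7, 71.6, 29.3 and 15.2 CPM on MCD. In FLCN KO mice it was at 220.2, 380.4, 279, 284 and 301 CPM on chow and at 8.44 to 29.7 CPM on MCD (median 16.5). Each MCD value was below every chow value. The log2 fold change was −3.51 in Cre mice (SE 0.38, 11.4-fold lower, adjusted p = 1.4e-07, edgeR) and −4.04 in FLCN KO mice (SE 0.37, 16.5-fold lower, adjusted p = 2.9e-08). The highest MCD value, 71.6 CPM, was that of Cre MCD 3, the library with the most muscle RNA, and without it the Cre change was −4.04.

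Cyp4f15 and Cyp4f13 fell by smaller amounts. Cyp4f15, another leukotriene and fatty acid hydroxylase, was at 109 to 144 CPM in Cre mice on chow and at 32.6 to 52.7 CPM on MCD, a log2 fold change of −1.54 (SE 0.13, adjusted p = 5.5e-09). Its change in FLCN KO mice was −1.57 (SE 0.13). Cyp4f13 was at 53.6 to 81.6 CPM on chow and 20.8 to 30.7 CPM on MCD in Cre mice (−1.32, SE 0.12, adjusted p = 8.5e-09) and changed by −0.81 in FLCN KO mice (SE 0.11, adjusted p = 7.7e-06). Cyp4v3 fell from 482 ± 172 to 205 ± 44.7 CPM in Cre mice (SD, n = 6 and 5; −1.24, SE 0.21, adjusted p = 3.0e-05) and from 456 ± 63.5 to 192 ± 26.1 CPM in FLCN KO mice (SD, n = 5 and 6; −1.24, SE 0.20). The groups of all 3 genes did not overlap between diets in either genotype. How many of all tested genes separate the diets in this way, as Cyp4a14, Cyp4a31 and Cyp4f14 also did, was not counted.

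**Figure D2:**
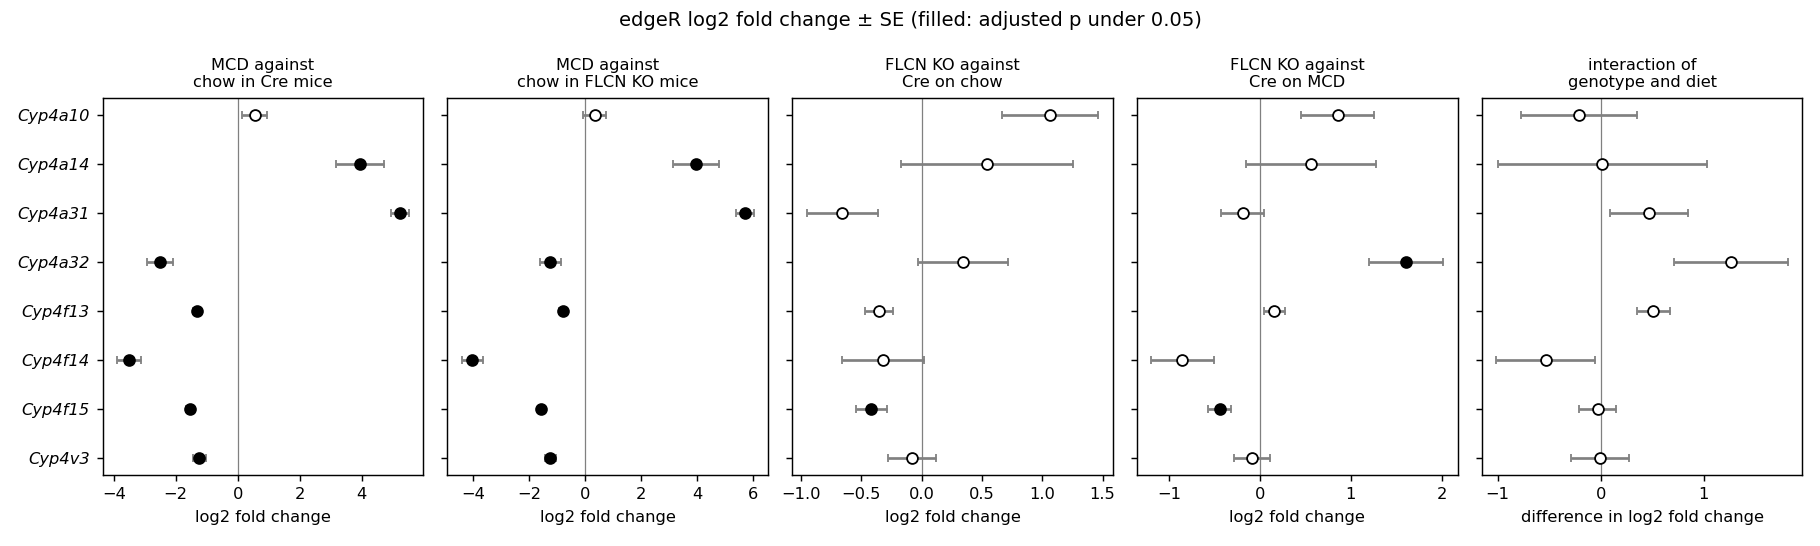
Log2 fold change of each Cyp4 member with its standard error in the 5 comparisons (edgeR), with filled points where the adjusted p was under 0.05. The horizontal scales differ between panels. In both genotypes 7 of 8 members are filled for the diet, 1 and 2 for the genotype on chow and on MCD, and 0 for the interaction.

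These changes altered the order of the members. Levels per kb of exon, which allow genes to be set side by side, were, with the sexes pooled, highest on chow for Cyp4f14 (151 ± 28.9 CPM per kb in Cre mice, SD, n = 6) and Cyp4v3 (127 ± 45.1), within the spread between mice. The order depended on sex: Cyp4f14 led in Cre females (171 ± 28.6, n = 3, against 89.6 ± 19.8 for Cyp4a10 and 87.6 ± 15.8 for Cyp4v3), and Cyp4v3 led in Cre males (166 ± 16.4 against 132 ± 11.1 for Cyp4f14, n = 3). Cyp4a31 was lowest at 1.55 ± 0.733 CPM per kb. On MCD in Cre mice (n = 5) Cyp4a14 led with 616 ± 209 CPM per kb, far above Cyp4a10 (78.4 ± 9.42), Cyp4a31 (59.2 ± 16) and Cyp4v3 (53.7 ± 11.7). Neighbours among the last 3 overlap within their SD, and Cyp4f14 had dropped to 13.3 ± 9.77. In FLCN KO mice with the sexes pooled the order on chow was Cyp4f14 (121 ± 23.8, n = 5), Cyp4v3 (119.7 ± 16.7) and Cyp4a10 (113 ± 25.1), all within their spread. There, too, males had Cyp4v3 first (136 ± 0.474, n = 2, against 103 ± 17.1 for Cyp4f14 and 88.5 ± 20.3 for Cyp4a10), while in females (n = 3) Cyp4a10 (129 ± 9.04) stood above Cyp4v3 (109 ± 9.29), and Cyp4f14 (133 ± 21.3) overlapped both within its SD. On MCD Cyp4a14 again led with 907 ± 167 CPM per kb (n = 6), followed by Cyp4a10 with 142 ± 29.3. The places of Cyp4f13, Cyp4f14 and Cyp4f15 on MCD depended on whether all exons or the longest transcript set the length.

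On chow, with the sexes pooled, Cyp4f15 was the member that differed between FLCN KO and Cre mice. Of the 8 members, 1 passed the test, where 8.62% of all tested genes did. Cyp4f15 was lower in FLCN KO mice (98.4, 111, 89.5, 96.3 and 98.4 CPM) than in Cre mice (144, 125, 130.4, 109, 141 and 141 CPM), with 1 value of each group in the other's range. The difference was −0.42 on the log2 scale (SE 0.13, adjusted p = 0.048, edgeR), a call at the edge of the threshold: it held in 8 of the 22 fits that left out 1 mouse, in none within 1 sex, and without the 5 male chow libraries the change was −0.26 (adjusted p = 0.54). Cyp4a10 was higher in FLCN KO mice by 1.07 without passing (SE 0.40, adjusted p = 0.0998), and Cyp4f13 lower by −0.36 without passing (adjusted p = 0.057). Cyp4f13 passed with DESeq2 (−0.35, adjusted p = 0.035) and in 4 of the 22 fits that left out 1 mouse. Leaving out Cre Chow 3, the mouse with the highest Cyp4a10 value in its group, brought Cyp4a10 past the threshold (1.41, adjusted p = 0.029). Limma-voom and a fit with sex as a covariate also called Cyp4a10 (1.503, adjusted p = 0.0338, and 1.199, adjusted p = 0.0235) and did not call Cyp4f15 (adjusted p = 0.057 and 0.0502).

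On MCD, Cyp4a32 was higher and Cyp4f15 lower in FLCN KO than in Cre mice, 2 calls of 8 where 16.6% of tested genes were called. Cyp4a32 lay at 5.12, 5.90, 7.19, 7.31, 8.94 and 8.06 CPM in FLCN KO mice, all above the highest Cre value of 3.23 CPM. Its log2 fold change was 1.61 (SE 0.41, adjusted p = 0.0094, edgeR), it passed without each mouse in turn, and the exact permutation test gave p = 0.00216. This call rests on low counts (39 to 183 per MCD library), and part of the Cyp4a32 sequence is shared with its far more abundant copies. The sum of the 3 copies differed by 0.46 without passing (SE 0.31, adjusted p = 0.34), but Cyp4a32 is too small a part of that sum for it to bear on this call. Cyp4f15 was at 23.6 to 39.4 CPM in FLCN KO mice (median 36.1) and at 47.2, 51.3, 52.7, 42.1 and 32.6 CPM in Cre mice, with overlap (−0.45, SE 0.13, adjusted p = 0.020). That call was lost without Cre MCD 3 (−0.39, adjusted p = 0.053), in a fit of the MCD groups alone (−0.45, adjusted p = 0.069), and in females alone (−0.26, adjusted p = 0.25) and males alone (−0.68, adjusted p = 0.083).

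Cyp4a10 on MCD was called or not depending on which groups entered the fit. Its FLCN KO values of 254, 221, 364, 265, 372 and 317 CPM all lay above the Cre values, which reached 181 CPM. The log2 fold change was 0.85 (SE 0.40), and the edgeR fit of all 4 groups gave adjusted p = 0.16. A fit of the MCD groups alone, which did not call Cyp4f15, gave adjusted p = 0.0019 for the same change, a fit without the 5 male chow libraries gave adjusted p = 6.4e-04, and the exact permutation test of the groups gave p = 0.00433. Cyp4a14 (0.56, adjusted p = 0.66), Cyp4a31 (−0.19), Cyp4f13 (0.16), Cyp4f14 (−0.86, adjusted p = 0.092) and Cyp4v3 (−0.09) did not pass. The value for Cyp4f14 moved to −0.33 without Cre MCD 3, and passed without Cre MCD 2, Cre MCD 5 or FLCN KO MCD 5 (−1.06, −1.04 and −1.07).

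With the sexes pooled, no member's response to MCD differed between genotypes past the threshold in edgeR, where 8.83% of tested genes did. By edgeR 2 members had an unadjusted p under 0.05: the fall of Cyp4a32 was smaller by 1.26 in FLCN KO mice (adjusted p = 0.16) and that of Cyp4f13 by 0.51 (SE 0.16, adjusted p = 0.053). DESeq2 called 1 member, Cyp4f13, and limma-voom 0. Without FLCN KO Chow 1 the value for Cyp4a32 was 1.70 (adjusted p = 0.040), and that for Cyp4f13 passed in 4 of the 22 fits without 1 mouse: Cre Chow 4, Cre MCD 2, FLCN KO Chow 1 or FLCN KO MCD 4.

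On chow, 4 of 8 members differed between the sexes, 3 of them Cyp4a genes. In a fit of the 8 cells of genotype, diet and sex, male livers on chow had less Cyp4a14 (−3.52, SE 0.25, adjusted p = 1.4e-08, edgeR) and less Cyp4a10 (−1.44, SE 0.16, adjusted p = 5.8e-06), and more Cyp4a32 (1.32, SE 0.25, adjusted p = 0.0015) and Cyp4v3 (0.62, SE 0.11, adjusted p = 0.0011), as means over both genotypes. Of all tested genes 11.8% were called, and on chow the low mapping share of the same 5 libraries cannot be told apart from sex. On MCD 0 of 8 members differed between the sexes, where 0.434% of tested genes did. Male Cre mice on MCD reached 983 and 1501 CPM of Cyp4a14 against 1369, 1703 and 2451 CPM in females.

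The response to MCD differed in size between the sexes for 4 members. As the male minus the female response, averaged over genotypes, Cyp4a14 rose more in males by 3.12 (SE 0.31, adjusted p = 4.6e-06) and Cyp4a10 by 1.28 (SE 0.22, adjusted p = 0.0020), while Cyp4a32 (−1.24, SE 0.37, adjusted p = 0.048) and Cyp4f13 (−0.49, SE 0.13, adjusted p = 0.034) fell more. For this difference 7.48% of tested genes were called. The average for Cyp4a10 came from the Cre mice, where its response was 2.26 in males and −0.28 in females, while in FLCN KO mice it was 0.40 and 0.37. In Cre males the rise of Cyp4a14 was 6.83 (SE 0.37) and in Cre females 3.22 (SE 0.30). Cyp4a31 rose by 5.18 (SE 0.35) in Cre males and 5.20 (SE 0.33) in Cre females, and its difference of 0.21 between the sexes over both genotypes had an SE of 0.35. Cyp4f14 and Cyp4f15 fell in both sexes in both genotypes.

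**Figure D3:**
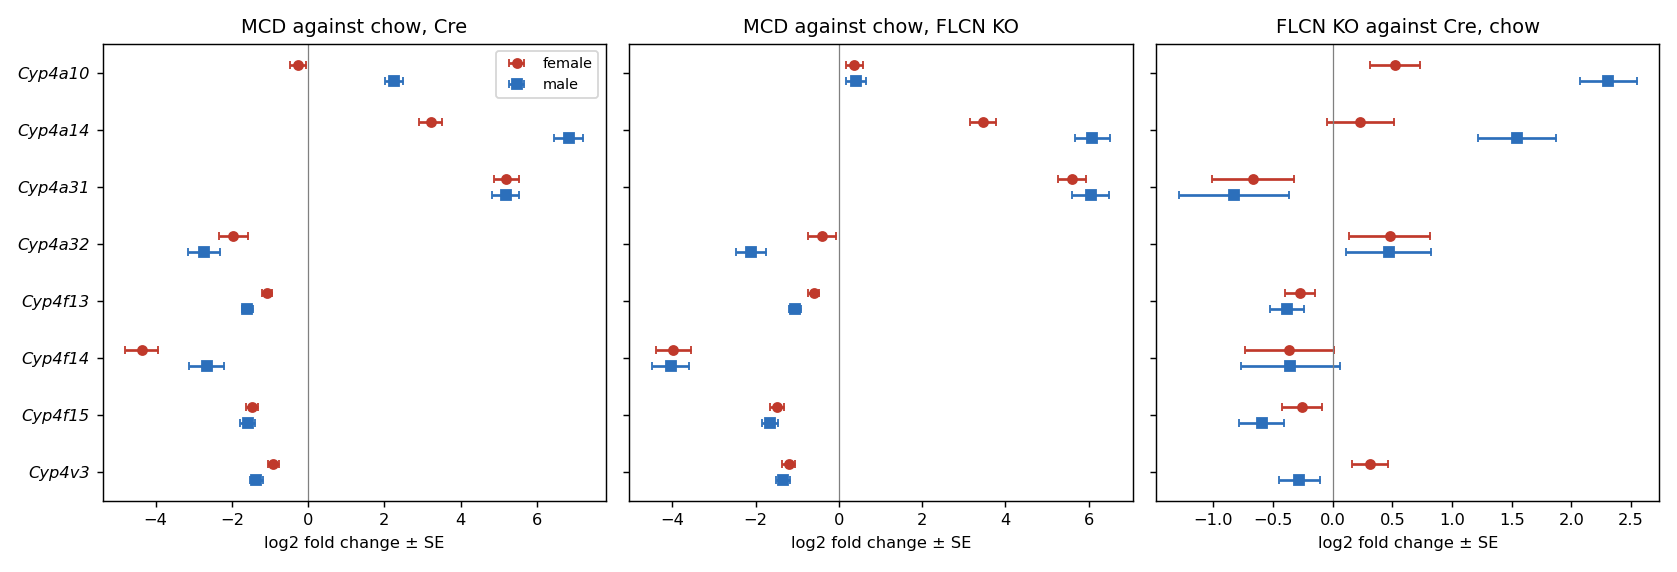
Log2 fold change with its standard error of each Cyp4 member within female (circles) and male (squares) livers, from a fit of genotype, diet and sex (3 females in each group, 2 or 3 males). The panels show the diet in each genotype and the genotype on chow. The male and female points lie far apart for Cyp4a14 in the diet panels (6.83 against 3.22 in Cre mice) and for Cyp4a10 in the Cre and genotype panels.

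Within males, Cyp4a10 was higher in FLCN KO than in Cre mice on chow. The FLCN KO males had 217 and 156 CPM where the Cre males had 54.9, 31.5 and 26.4 CPM, a log2 fold change of 2.31 (SE 0.24, adjusted p = 4.8e-06, edgeR), in a comparison where 3.90% of genes were called. The females of both genotypes were closer, at 270.2, 291 and 253 CPM against 149, 232 and 186 CPM (0.52, SE 0.21, adjusted p = 0.19). The difference of 1.79 between the sexes (SE 0.31) had adjusted p = 0.0499, in a test that called 0.0427% of all genes. In the same males Cyp4a14 was higher in FLCN KO mice by 1.55 (SE 0.33, adjusted p = 0.0086), and by 0.23 in females without passing (SE 0.28, adjusted p = 0.74), and the difference of 1.32 between the sexes did not pass (adjusted p = 0.79). A two-sided exact permutation test compared the genotypes on chow over both sexes together, with labels exchanged only between mice of the same sex. It does not test either sex alone. This exact permutation test gave p = 0.005, the smallest it allows, for Cyp4a10 and for Cyp4f13. The same exact permutation test gave p = 0.01 for Cyp4f15, p = 0.03 for Cyp4a14 and p = 0.045 for Cyp4f14. These values are unadjusted, and 32 such tests were made in all.

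Cyp4a10 responded to MCD in Cre males, by 2.26 (SE 0.24, adjusted p = 7.8e-07), and not past the threshold in Cre females (−0.28, SE 0.21, adjusted p = 0.28). In males the response was smaller in FLCN KO than in Cre mice by 1.85 on the log2 scale (−1.85, SE 0.33, adjusted p = 0.0088), 1 of 8 members where 1.38% of genes were called. On MCD, the genotypes differed in females for Cyp4a10 (1.17, SE 0.21, adjusted p = 0.0014) and Cyp4a32 (2.04, SE 0.37, adjusted p = 0.0015), where 13.0% of genes were called, and the male values of 0.46 and 1.09 did not pass. In males they differed for Cyp4f14 (−1.74, SE 0.42, adjusted p = 0.013) and Cyp4f15 (−0.67, SE 0.19, adjusted p = 0.027), where 9.86% of genes were called, the female values of 0.03 and −0.26 did not pass, and the 2 Cre males on MCD were Cre MCD 3 and Cre MCD 4, the libraries with the most muscle RNA. Whether these genotype differences on MCD differ between the sexes was not tested.

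Of 12 other Cyp4 genes listed for comparison, 7 passed the filter on low counts. In Cre mice on MCD 2 of these rose (Cyp4f16 by 1.60 and Cyp4f18 by 2.47) and 3 fell (Cyp4a12a, Cyp4a12b and Cyp4f17), while in FLCN KO mice 0 rose and 2 fell, where 57.5% and 45.0% of all tested genes were called. Cyp4f18, which is expressed in myeloid cells, went from 0.327 ± 0.243 CPM on chow to 1.89 ± 0.507 on MCD in Cre mice (SD, n = 6 and 5). Both Cyp4f16 and Cyp4f18 were already higher in FLCN KO mice on chow (1.58, adjusted p = 1.5e-04, and 1.34, adjusted p = 0.022), and their responses to MCD were smaller there by 1.34 and 2.11 (adjusted p = 0.015 and 0.0079). Cyp4b1 and Cyp4f39 did not pass in any of the 5 comparisons.

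Cyp4a12a and Cyp4a12b, near-identical omega-hydroxylases known for their male bias in mouse liver, were highest in males on chow. Cyp4a12a was at 69.6, 192 and 287 CPM in Cre males and at 8.93, 2.78 and 0.974 CPM in Cre females on chow, and at 325 and 379.9 CPM in FLCN KO males and 50.2, 52.8 and 23.3 CPM in FLCN KO females. The female difference between genotypes was 3.31 (SE 0.60, adjusted p = 0.0027), and the Y-linked reads of these FLCN KO females were 24.7, 11.4 and 0.204 CPM. The Cre females held 9.42, 2.80 and 0.773 CPM of Y-linked reads, in the same order as their Cyp4a12a levels. In the FLCN KO females the orders differed. Their highest Cyp4a12a level, 52.8 CPM, stood beside 11.4 CPM of Y-linked reads, and the lowest, 23.3 CPM, beside 0.204 CPM. The part of these reads in the difference was not tested. On MCD Cyp4a12a lay between 2.51 and 4.71 CPM in Cre mice and between 15.0 and 45.7 CPM in FLCN KO mice, without overlap. The pooled difference of 2.80 did not pass (adjusted p = 0.071), but it passed in females (2.61, adjusted p = 0.0073) and in males (2.88, adjusted p = 0.012).

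Cyp4 enzymes need electrons from P450 oxidoreductase, and Por was the 1 electron donor of 5 that rose on MCD. Its log2 fold change was 0.94 in Cre mice (adjusted p = 0.0024) and 1.22 in FLCN KO mice (adjusted p = 4.7e-04). The other 4, among them Cyb5b (−1.40 and −1.32) and Cyb5r3 (−1.34 and −1.38), fell in both genotypes. Of all tested genes 29.3% rose and 28.2% fell in Cre mice, and 22.5% moved each way in FLCN KO mice. Of the 6 genes for the dehydrogenase steps that follow, Adh7 rose (2.32 in Cre and 1.72 in FLCN KO mice), Adh4 (−1.78 and −2.02) and Adh1 (−1.17 and −1.19) fell, and Aldh3a2, the microsomal fatty aldehyde dehydrogenase, did not pass (0.11 and 0.33). Among 19 genes of peroxisomal beta-oxidation of dicarboxylic acids, 0 rose and 9 fell in Cre mice. In FLCN KO mice 2 rose and 8 fell, beside the same shares of all tested genes. Abcd3, which carries the acids into peroxisomes, fell by 1.02 and by 0.89, and Ehhadh did not pass (−0.36 and 0.01). Among called genes with a mean of at least 1 CPM, Pecr changed most (−2.10 and −1.55). Acsl1 fell by 1.61 in Cre mice, and its response differed between genotypes by 0.98 (adjusted p = 0.013). On MCD Acsl1 (0.51, adjusted p = 0.036) and Crot (0.50, adjusted p = 0.034) were higher in FLCN KO mice, and on chow Pecr was lower (−0.46, adjusted p = 0.027). The medians over these 19 genes were −0.27 and 0.01.

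Ppara mRNA did not pass in any comparison (−0.32 for the diet in each genotype), and its partner Rxra fell by 0.39 in Cre and by 0.38 in FLCN KO mice. In the list of PPARα and its cofactors, Ppard fell by 1.62 and 1.70, and Pparg rose by 1.29 and 1.00. Ppargc1a rose by 1.05 in FLCN KO mice and was higher there than in Cre mice on MCD (1.10, adjusted p = 9.6e-04, edgeR). Of 29 tested genes in the list of other PPARα targets, 14 rose and 5 fell in Cre mice and 18 rose and 2 fell in FLCN KO mice, with medians of 0.35 and 0.65, beside the same shares of all tested genes (29.3% and 28.2%, and 22.5% each way). Fgf21, a hormone secreted by the liver, rose by 4.33 and 3.50, Acot2, a mitochondrial acyl-CoA thioesterase, by 3.31 and 2.79, and Cd36, a fatty acid transporter, by 3.24 and 2.40. Pdk4 rose by 1.53 and 1.74, Plin2, a lipid droplet coat protein, by 0.98 and 0.66, and Acot1 did not pass (−1.03 and 0.10). Plin4, another lipid droplet protein, rose by 3.60 and 1.14, a smaller response in FLCN KO mice (−2.46, adjusted p = 7.1e-04), and it was higher in FLCN KO than in Cre mice by 2.39 on MCD, where Fgf21 was lower (−1.59, adjusted p = 0.013). On chow Plin4 was higher in FLCN KO mice by 4.85 (adjusted p = 3.8e-10), where 5 genes of the list were higher and 2 lower and 8.62% of all tested genes were called. Among 6 tested genes of leukotriene synthesis and reception, Alox5ap, which presents arachidonic acid to 5-lipoxygenase, rose by 1.36 in Cre mice and did not pass in FLCN KO mice (0.38, adjusted p = 0.055), where it was already higher on chow (0.53, adjusted p = 0.044) and its response was smaller by 0.98 (adjusted p = 0.010), and Lta4h fell by 0.42 in Cre and by 0.36 in FLCN KO mice. That list had 1 gene higher and 1 lower in Cre mice and 0 higher and 3 lower in FLCN KO mice. The list of PPARα and its cofactors had 3 higher and 4 lower in each. Both lists stand beside the same shares of all tested genes for the diet.

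**Figure D4:**
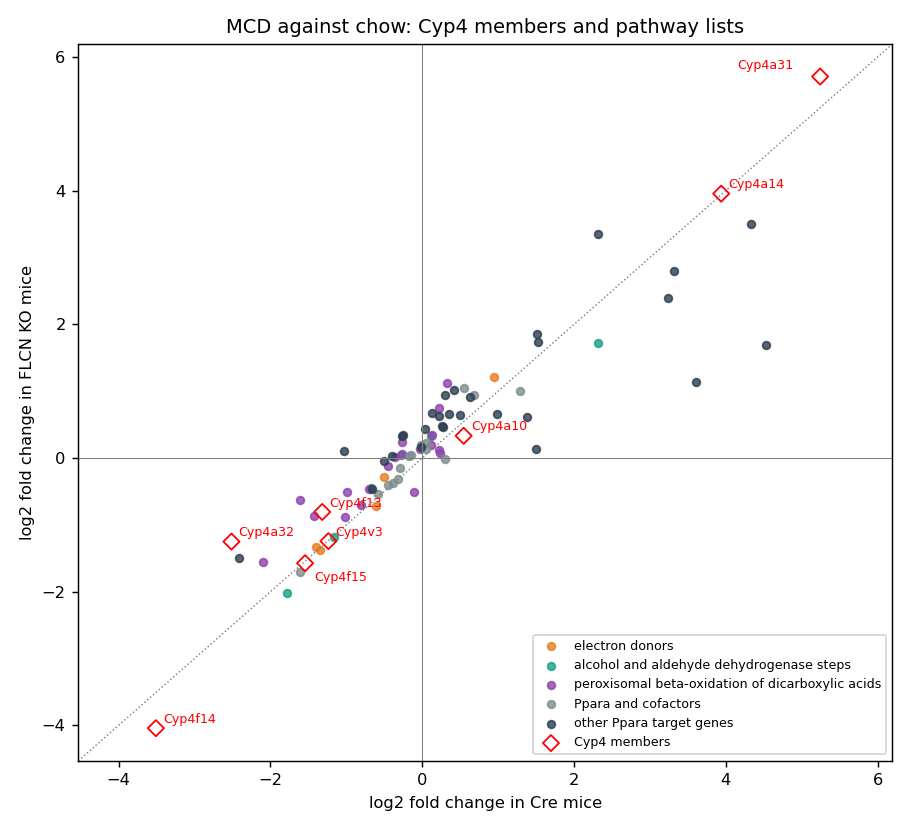
Log2 fold change on MCD against chow in Cre mice (horizontal) and in FLCN KO mice (vertical) for the Cyp4 members (open diamonds) and the tested genes of 5 pathway lists (points). The dotted line marks equal change. Cyp4a31 and Cyp4a14 lie at the upper right and Cyp4f14 at the lower left. Cyp4a31 and Cyp4f14 lie beyond the largest called changes of list genes with a mean of at least 1 CPM.

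Markers of cell types are set beside the 57.5% of all tested genes called for the diet in Cre mice and the 45.0% in FLCN KO mice. Of 8 hepatocyte markers 6 fell in Cre mice and 7 in FLCN KO mice (medians −0.91 and −0.65), and their sum went from 113578 to 160426 CPM in Cre mice on chow to 66483 to 103132 CPM on MCD. In Cre mice all 4 tested neutrophil markers and 5 of 7 stellate cell markers rose, and in FLCN KO mice 3 and 1. Of 8 macrophage markers 3 rose and 1 fell in Cre mice and 0 rose and 3 fell in FLCN KO mice, of 6 endothelial markers 1 rose and 3 fell and 0 rose and 4 fell, of 5 cholangiocyte markers 3 and 0 rose, and of 4 tested lymphocyte markers 0 and 3 fell. The 12 muscle markers were called higher in Cre mice on MCD than on chow, and lower in FLCN KO than in Cre mice on MCD. Of the 5 Cre livers on MCD, Cre MCD 3 held 3454 CPM of them and Cre MCD 4 held 165 CPM, while Cre MCD 2 and Cre MCD 5 were at 2.54 and 1.18 CPM, inside the chow range. Their part in the falls of the Cyp4f members and Cyp4v3 was not tested. Adipocyte markers had 0 of 4 genes past the filter on low counts and summed to at most 5.34 CPM, in Cre MCD 3.

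The genes whose levels ran most like those of Cyp4a14 over the 22 libraries, by Pearson correlation of log2 CPM among 12847 genes, were Abcb1a (0.973), Itga6 (0.968), Cyp3a63-ps (0.957), Gpat3 (0.952) and Acot2 (0.951). For Cyp4f14 they were Hectd2os (0.993), Haao (0.985), Serpinf1 (0.981), Adra1b (0.979) and Cyp2c23 (0.978). The points share the diet difference between the groups. Cyp4a14 and Cyp4v3 ran in opposite directions over all libraries (−0.95) but not once the means of group and sex were removed (−0.20), and Cyp4a14 and Cyp4f15 had −0.88 and −0.65. These values describe the 22 libraries and carry no test.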

How the data were processed

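RNA was extracted from about 25 mg of frozen liver per mouse. The authors prepared mRNA libraries (KAPA mRNA HyperPrep, adapters with unique molecular identifiers), sequenced single-end reads of 75 bases, trimmed them with Trimmomatic, aligned them to GRCm38 with STAR and deposited the HTSeq counts, whole-number reads per gene without normalization. A step that collapses identifiers, the annotation release and the strand setting of the counting are not given in the sources used here. All 22 columns carry a sample label.

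For testing, edgeR 4.0.16 was run in R 4.3.3 on genes whose count averaged 10 or more, with TMM scaling and all 4 groups in a single model. Its quasi-likelihood test (two-sided) was adjusted after Benjamini-Hochberg across 14062 genes at a threshold of 0.05. The study itself used limma. Log2 CPM for correlations and exact permutation tests used a prior count of 2. Sex was read from Xist against Ddx3y, Uty, Kdm5d and Eif2s3y. Positions and sequences are from GENCODE M21 (Python 3, Biopython). No 2 of 50 replicate pairs were identical (Spearman 0.939 to 0.994).

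The members and the lists of genes were chosen with earlier results of these data known. Named are all members, Flcn, the other Cyp4 genes, 11 genes chosen by role (1 of them is not reported here), up to 4 genes with the largest called change per list and comparison (mean of at least 1 CPM), and the 5 genes most like Cyp4a14 and Cyp4f14. In simulated data of 14062 genes with 200 changed, the fit of MCD against chow in Cre mice recovered 76% of changes of 1 on the log2 scale and 95% of changes of 2 (53% and 87% for the interaction), and 5 and 6.67% of its calls were false. Alternatives were limma-voom 3.58.1, DESeq2 1.42.0, RLE factors, other filters, fewer groups, a replicate block, sex as a covariate, each sex alone, sums of close copies, transcript length, and leaving out libraries. Same-numbered mice did not pair (mean correlation of deviations −0.084 to 0.129).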

Additional observations from a re-analysis of the deposited data

Results flagged for a closer look

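Cre MCD 2 had the lowest Cyp4a10 level of its group, 132 CPM, set apart from the next lowest of 166 CPM by 0.729 of the whole range of the group on the log2 scale. This was the only such case among 32 sets of 1 member in 1 group, where chance gives about 1 in 20.

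Differences in the response to MCD between males and females, averaged over genotypes and tested as differences, passed for Cyp4a14 (3.12), Cyp4a10 (1.28), Cyp4a32 (−1.24) and Cyp4f13 (−0.49). That of Cyp4a10 came from the Cre mice (2.26 in males and −0.28 in females), since in FLCN KO mice its response was 0.40 and 0.37. The effect of Flcn loss on Cyp4a10 on chow also differed between males and females, by 1.79 with an adjusted p of 0.0499 (edgeR). On chow the male libraries are those with a low uniquely mapped share, and the part of that share in these differences cannot be told apart from sex.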

How the results depend on the processing

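Of 1447 member changes recomputed under an alternative, 1315 kept direction and side of the threshold, 38 lost it, 34 gained it and 60 changed sign. The MCD responses of Cyp4a14, Cyp4a31, Cyp4f13, Cyp4f14, Cyp4f15 and Cyp4v3 passed in each alternative run on single genes. The cause was not tested for any change below. Males number 2 or 3 per group, Cyp4a31 on chow (13 to 123 counts) and Cyp4a32 on MCD (39 to 183) rest on few reads, and reads shared among close copies limit both.

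The number of members called between genotypes on chow (1) was 0 with no filter, with at least 10 counts in every library and with the replicate block. It was also 0 in females (alone or in the fit with sex) and without the 5 low-mapping chow libraries. Without the 2 libraries with both Xist and the most Y-linked reads it was 0 as well, and it was 2 with DESeq2 and in males. It stayed at 1 with limma-voom and with sex as a covariate, but the member called was Cyp4a10 and not Cyp4f15. On MCD (2) it was 1 in males alone (Cyp4f14) and 3 without the 5 chow libraries (Cyp4a10 added), and it stayed at 2 in the fit of the groups compared and in females, with Cyp4a10 called and Cyp4f15 not. For MCD in Cre mice (7) it was 8 with limma-voom, with sex as a covariate and in males, where Cyp4a10 was added. For the interaction (0) it was 1 with DESeq2, in females alone and in males in the fit with sex. Over all genes, the calls in males alone were 4685 and 2905 for MCD in Cre and FLCN KO mice (8089 and 6328 with all libraries), 335 and 720 between genotypes on chow and MCD (1212 and 2333) and 63 for the interaction (1242). In males in the fit with sex they were 4042 for MCD in FLCN KO mice, 549, 1387 and 194. On chow they were 627 in females alone, 611 in females in the fit with sex and 495 without the 5 chow libraries, and for the interaction 552 with the replicate block, 783 without the 5 and 683 without the 2 libraries. The replicate numbers do not pair the mice, and the replicate block changed no call of a member other than that of Cyp4f15 on chow.

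Leaving out 1 mouse at a time (22 fits), members called ranged from 7 to 7 and 6 to 7 for MCD in Cre and FLCN KO mice, 0 to 2 and 1 to 3 between genotypes on chow and MCD, and 0 to 2 for the interaction, and all genes from 7595 to 8165, 5613 to 6591, 669 to 1428, 1770 to 2466 and 813 to 1422. Interaction values crossed 0 for Cyp4a14 (−0.349 to 0.437), Cyp4f15 (−0.156 to 0.049) and Cyp4v3 (−0.145 to 0.114), and genotype values for Cyp4v3 on chow (−0.202 to 0.057) and MCD (−0.199 to 0.003) and Cyp4a32 on chow (−0.097 to 0.647).

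Other values changed sign as follows. The interaction of Cyp4a14 was −0.012 with at least 10 counts everywhere, −0.515 with limma-voom, −0.787 in males alone, −0.748 in males in the fit with sex and −0.046 without the 2 libraries, and those of Cyp4f15 and Cyp4v3 were 0.029 without the 2 libraries and 0.022 in males in the fit with sex. In females, alone and in the fit with sex, the MCD response of Cyp4a10 in Cre mice was −0.277 and −0.278, the genotype value of Cyp4v3 was 0.310 and 0.310 on chow and 0.017 and 0.016 on MCD, that of Cyp4f14 on MCD 0.027 and 0.027, and the interactions of Cyp4a10 and Cyp4f14 were 0.648 and 0.649, and 0.389 and 0.390. Cyp4a31 on MCD was 0.021 and 0.032 in males. Without the 5 chow libraries, Cyp4a10 was −0.197 for MCD in Cre mice and 0.334 for the interaction, and Cyp4v3 was 0.307 on chow, where sex as a covariate gave 0.018. The sum of Cyp4a10, Cyp4a31 and Cyp4a32, set beside its members, was 1.276 and 0.762 for MCD in Cre and FLCN KO mice, where Cyp4a32 fell, 0.976 and 0.463 between genotypes on chow and MCD, where Cyp4a31 was below 0, and −0.513 for the interaction. With the longest transcript as length, Cyp4f13 and Cyp4f14 changed places on MCD in Cre mice, and Cyp4f13, Cyp4f14 and Cyp4f15 in FLCN KO mice.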
